A study of Gossypium barbadense with 4 samples.

Results

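Ovules of the semigametic cotton line 57-4 were compared with ovules of its normal progenitor, Pima S-1 (Gossypium barbadense), over the probe sets that the study lists as differing between these genotypes. A probe set is a group of short array probes that reads a common transcript or a small family of transcripts. The members were read from the study's ovule table, and from the anther and ovary sheets of its combined list where an accession could be tied to a probe set. They number 1659 of 24029 probe sets without controls. Of these, 1456 are on the ovule lists and 203 are listed for anthers only. Names were given by the study for 978 members and by a UniGene title for 200, and 481 have no name here.

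The line 57-4 carries the semigamy trait and came out of Pima S-1 as a natural doubled haploid. Pima S-1, an obsolete cultivar, lacks the trait. Both were grown in the field, and ovules were taken at 0 days post-anthesis (DPA), the day of flowering. RNA of 3 biological replicates of 10 flowers each was pooled by genotype, and each pool was hybridized to 1 Affymetrix Cotton Genome Array. There is therefore no replicate error: every difference below is a ratio between 1 array of 57-4 ovules and 1 array of Pima S-1 ovules, given without a test. Anthers of both lines were run on 2 further arrays. These serve here to show marker signals in another tissue and for a side-by-side look at members past 2-fold in both tissues.

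In semigamy the sperm enters the egg cell but the nuclei of sperm and egg do not fuse, and each may divide on its own, so that seedlings can be haploid or made of maternal and paternal sectors. At flowering a cotton ovule holds the embryo sac within the nucellus and integuments, and the outer epidermis begins to form fibre cells at about the same time. An ovule array reads all of these tissues together. Fewer cells of a type and less RNA per cell cannot be told apart in such samples, and the egg cell is a very small part of the RNA.

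Signals under 50 were set to 50, called the floor, before log2(57-4/Pima S-1) was taken. A fold is a lower bound where the dimmer signal was under the floor, and no fold is given where both were. All signals below are from ovules unless anthers are named. A ratio counts as 2-fold at a log2 of 1 or -1. Mean signals without the lowest and highest 2% were 250.1 on both ovule arrays, and 14028 probe sets reached 50 in 57-4 ovules, against 12411 in Pima S-1 ovules. The G. hirsutum control transcripts, probed at their 3' and 5' ends, had 3' to 5' signal ratios of 20.4 for ss1, 14.5 for ubq11 and 21.1 for actin in 57-4 ovules, against 4.18, 7.46 and 11.8 in Pima S-1 ovules. The G. raimondii designs of these controls were dim and mixed, with ratios of 0.536, 0.0298 and 2.84 in 57-4 ovules, against 0.263, 0.102 and 5.67 in Pima S-1 ovules. A high ratio means that the 5' end was read weakly, and its part in the differences below was not tested.

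The direction of every ratio follows the deposited labels. In the study's ovule table, the signals headed 57-4 equal the deposited Pima S-1 values within 0.05 for 1414 of 1414 probe sets, and those headed Pima S-1 equal the deposited 57-4 values for 1414 of 1414. Exchanging the ovule arrays would turn every sign given below. The ovule table analysed here is also shortened. Its deposited log2 ratios had a median of 0.97 over its first 150 probe sets and -0.91 over its last 150, and 414 rows that follow these are not analysed here. By that order they continue the part of the table with the larger decreases, so the counts of lower members, the lowest ratios and the lists with few lower members could all change with them. From the ovary sheet, 1230 of 1600 accessions were tied to a probe set and 370 were not.

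The members differed mostly by less than 2-fold, and mostly downward in 57-4. Of the 1659 members, 86 were at least 2-fold higher in 57-4 ovules (5.18%, against 2.73% of all probe sets) and 173 were at least 2-fold lower (10.4%, against 2.53% of all probe sets). Scaling the arrays on their 9 hybridization controls, which were brighter on the 57-4 array (median log2 0.40), gave 57 higher and 667 lower members. Over all probe sets the same scaling gave 176 higher and 1516 lower. It moved the median of all measured probe sets to -0.27, against 0.06 as deposited. At the deposited scale another 1354 lay within 2-fold and 46 were under the floor on both arrays. The study chose its ovule lists on these same arrays, so these shares describe the choice and are not independent evidence of a direction. On the ovule lists 74 were higher and 169 lower, with a median log2 ratio of -0.57 over 1439 measured probe sets. Among those listed for anthers only 12 were higher and 4 lower, with a median of 0.05 over 174. All 14707 measured probe sets had a median of 0.06.

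Bright probe sets of the ovule lists were almost uniformly a little lower in 57-4 ovules, while the higher members lay mainly at low and middle signals. Levels are given as the geometric mean of both floored signals. At 3000 or more, all 73 probe sets of the ovule lists were below 0, their median was -0.62, and 8 of them were at least 2-fold lower. Between 1000 and 3000 the ratio was below 0 in 228 of 237 (median -0.52), between 300 and 1000 in 527 of 547 (median -0.56), and between 100 and 300 in 422 of 442 (median -0.69). Under 100 the picture turned, with 91 of 140 above 0, a median of 0.31, and 33 higher against 14 lower. Among those listed for anthers only, 8 of 11 were above 0 at 3000 or more (median 0.10). So were 16 of 25 between 1000 and 3000 (median 0.20) and 25 of 36 between 300 and 1000 (median 0.32). Their medians were -0.14 between 100 and 300 and -0.11 under 100. Probe sets outside the lists had medians of 0.07, 0.06, 0.02 and 0.07 at the 4 upper levels and 0.21 under 100.

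**Figure D1:**
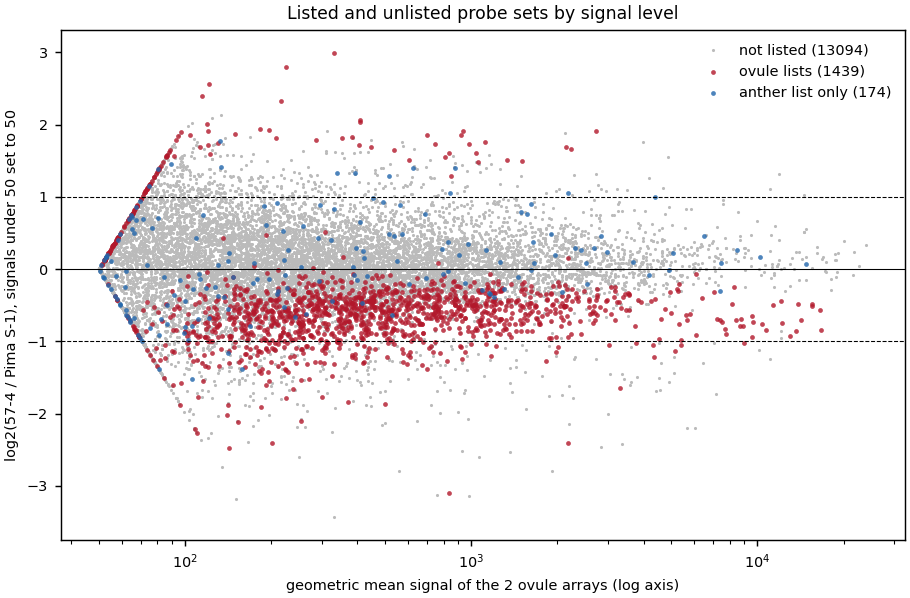
Each point is a probe set with a signal of at least 50 on 1 or both ovule arrays. The x axis is the geometric mean signal on a log scale and the y axis log2(57-4/Pima S-1), with dashed lines at 2-fold. Red points are probe sets on the ovule lists (1439), blue points those listed for anthers only (174) and grey points those not listed (13094). Above a signal of 100 the red points form a band below 0 with a small separate cloud above 1.

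The floor takes part in the low end. Of the members, 104 reached 50 in 57-4 ovules only, of which 36 were past 2-fold, and 41 reached 50 in Pima S-1 ovules only, of which 9 were past 2-fold. For these 45 the fold is a bound. The whole array had the same imbalance. Over all 24029 probe sets, 2296 reached 50 in 57-4 ovules only, of which 183 were past 2-fold. Another 679 reached 50 in Pima S-1 ovules only, of which 99 were past 2-fold.

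Among described members whose brighter array read 200 or more, the highest ratios included a polyamine enzyme, transcription factors and several proteins that plastid or mitochondrial genomes encode in plants. A spermidine synthase-like transcript (DV849788) had a signal of 932.3 in 57-4 and 117.7 in Pima S-1, 7.92-fold higher. Spermidine synthase makes the polyamine spermidine from putrescine. Succinate dehydrogenase subunit 4 (DW482123), a membrane anchor of respiratory complex II, had 596.9 in 57-4 and 85.5 in Pima S-1, 6.98-fold higher. RHD2 (DT049218), an NADPH oxidase that supplies reactive oxygen to growing root hairs in Arabidopsis, had 295.8 in 57-4 and 32.4 in Pima S-1, at least 5.92-fold higher. A kinesin-like calmodulin binding protein (DW500209), a microtubule motor regulated by calcium, had 485 in 57-4 and 96.5 in Pima S-1, 5.03-fold higher. An auxin-induced basic helix-loop-helix factor (DT460896) had 238.3 in 57-4 and 59.3 in Pima S-1, 4.02-fold higher.

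The lowest ratios were spread over folding, transcription, pigment synthesis, RNA handling and the cytoskeleton. A heat shock protein (DN780720) had 286.5 in 57-4 and 2451.7 in Pima S-1, 8.56-fold lower. ERF017 (DT049130), an ethylene-responsive transcription factor, had 60.2 in 57-4 and 334.5 in Pima S-1, 5.56-fold lower. Chalcone synthase (DT460560), the first committed enzyme of flavonoid synthesis, had 946.2 in 57-4 and 5008.9 in Pima S-1, 5.29-fold lower. It was the brightest of the 10 lowest in both lines. DEAD-box RNA helicase 7 (DT558313) had 39 in 57-4 and 232.7 in Pima S-1, at least 4.65-fold lower. A poly(A)-binding protein (CO089484), which coats the tails of messenger RNAs, had 123.1 in 57-4 and 527.8 in Pima S-1, 4.29-fold lower. Alcohol dehydrogenase class-3 (AI729704), which detoxifies formaldehyde with glutathione, had 195.9 in 57-4 and 698.5 in Pima S-1, 3.57-fold lower.

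**Figure D2:**
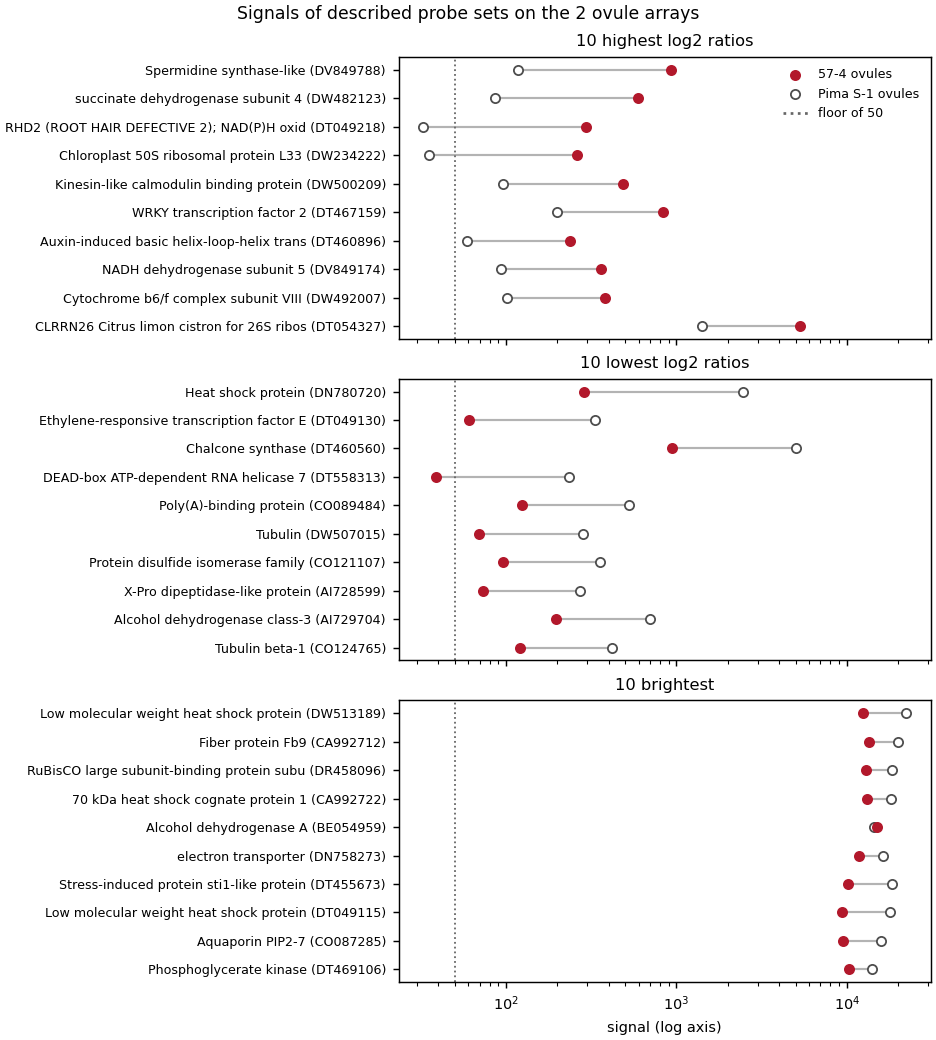
Signals of described probe sets on the 2 ovule arrays, on a log axis. Filled red points are 57-4 ovules and open points Pima S-1 ovules, each a single array, and the dotted line marks the floor of 50. The top panel holds the 10 highest ratios, the middle panel the 10 lowest and the bottom panel the 10 brightest. Of the 10 brightest, alcohol dehydrogenase A was the only one with the higher signal in 57-4. It is also the only one of them that is not on the ovule lists.

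The cytoskeleton list of tubulins, microtubule proteins and kinesins leaned lower in 57-4 ovules, with tubulins among the strongest differences. Microtubules form the spindle and the tracks on which nuclei and vesicles move, and their subunits are alpha- and beta-tubulin. Of 16 measured probe sets 5 were at least 2-fold lower and 1 was higher, with a median log2 ratio of -0.71. A tubulin (DW507015) had 69.7 in 57-4 and 281.8 in Pima S-1, 4.04-fold lower, and tubulin beta-1 (CO124765) had 121.3 and 417.5 in the same order, 3.44-fold lower. MAP65-1a, which bundles microtubules, was lower at both of its probe sets, with 139.3 against 343.7 (CA993384) and 595.3 against 1067.9 (DN759963) in 57-4 and Pima S-1 ovules. A further tubulin beta-1 probe set (CO116958) went the other way, with 83.3 in 57-4 and 16.1 in Pima S-1 (log2 0.74, a bound). Alpha- and beta-tubulin overlapped in size, since beta tubulin 8 (CO124872) had a log2 ratio of -1.10 and 2 beta-tubulin 1 probe sets had -0.74 and -0.69. Alpha-tubulin read 372.9 in 57-4 and 767.8 in Pima S-1 at CA993521 (log2 -1.04), and 1120.9 in 57-4 and 1709.7 in Pima S-1 at DT572541 (log2 -0.61). The kinesin-like calmodulin binding protein named above was the member on the higher side. None of 8 measured actins and actin-binding proteins passed 2-fold (median -0.55), and actin CO127458 had 822.1 in 57-4 and 1350 in Pima S-1.

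Cell cycle, replication and chromatin transcripts held 4 lower and no higher probe sets among 21 measured (median log2 ratio -0.62). Cyclin D3-1 (DN804524), which drives cells from G1 into DNA synthesis, had 266.1 in 57-4 and 657.2 in Pima S-1, 2.47-fold lower. MCM3 (DW238515), a subunit of the helicase that opens replication origins, had 174.2 in 57-4 and 373.8 in Pima S-1 (log2 -1.10). Histone H2A was lower at both probe sets (log2 -1.05 and -1.03). At other members the lines were closer, among them histone H1-III, which is listed for anthers only. The linker histone H1-III (CA993040) had 3226.1 in 57-4 and 2744.6 in Pima S-1, and the mitotic kinase CDKB1;2 (DT574448) had 176.5 in 57-4 and 171.6 in Pima S-1. The 8 proteins of nuclear transport and the Ran cycle, which carry cargo through nuclear pores and guide spindle and envelope assembly, all had ratios below 0 and none passed 2-fold (range -0.80 to -0.18).

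Genes tied to fertilization, gametophytes and embryos held 1 higher and 1 lower probe set among 15 measured (median -0.46). FERONIA, a receptor kinase of the female gametophyte through which Arabidopsis synergids receive the pollen tube, had 73.3 in 57-4 and 186.7 in Pima S-1 at DR455120 (log2 -1.35), but 112.6 in 57-4 and 149.5 in Pima S-1 at DN802276 (log2 -0.41). A UNE1-like protein (DT459453), named after an Arabidopsis mutant with an unfertilized embryo sac, had 148.2 in 57-4 and 36.1 in Pima S-1 (log2 1.57, a bound). A fertilization independent endosperm protein, whose Arabidopsis relative keeps endosperm from forming before fertilization (AI730405), had 82.7 in 57-4 and 139.2 in Pima S-1. SHATTERPROOF1 (DR044134), a MADS-box gene of carpels and ovules, had 1355 in 57-4 and 1718.1 in Pima S-1, a difference of 0.34 on the log2 scale. The lines thus differed little at this gene.

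As a look at the tissue, 18 ovule and fibre markers among the members summed to a signal of 19812 in 57-4 and 29431 in Pima S-1. GHTTG1 alone was at least 2-fold lower and none was higher. Fiber protein Fb9 gave 13554.8 of the 57-4 sum and 20078.8 of the Pima S-1 sum. The study chose its ovule lists on these same arrays, so the lower 57-4 sum cannot serve as a check of the tissue. GHMYB25, a regulator of fibre initials, was near the floor with 58.4 in 57-4 and 8.4 in Pima S-1. The same 18 markers gave sums of 15498 (57-4) and 14886 (Pima S-1) in anthers, so their signal was not confined to ovules. Fb9 gave 9414.5 and 7510.8 of these anther sums, in the same order. No listed description carried an anther or pollen word, and the part of other tissues in the ovule differences was not tested.

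Fibre-named proteins were all lower by less than 2-fold: 13 of 13 measured had ratios below 0, between -0.93 and -0.33. Fiber protein Fb9 (CA992712) was among the brightest members, with 13554.8 in 57-4 and 20078.8 in Pima S-1. The regulator GHTTG1 (AF336281), a WD-repeat protein related to the Arabidopsis trichome gene TTG1, had 195.2 in 57-4 and 479.8 in Pima S-1 (log2 -1.30). Wall genes stood lower with more spread. Of 46 measured, 9 were at least 2-fold lower and 2 higher (median -0.58). The lower ones included fasciclin-like arabinogalactan protein 11 (DT550268), a wall glycoprotein, with 369.5 in 57-4 and 897.4 in Pima S-1, cellulose synthase 2 (AI729285) with 68.5 in 57-4 and 165.2 in Pima S-1, and an alpha-expansin (CO122608), which loosens walls, with 130.9 in 57-4 and 287.5 in Pima S-1. Against them, an endo-xyloglucan transferase (DN826143), which cuts and rejoins xyloglucan chains, had 1336.1 in 57-4 and 368.4 in Pima S-1, 3.63-fold higher.

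Heat shock proteins and chaperones were bright as a list and nearly all lower in 57-4 ovules. Ratios were below 0 in 37 of 40 measured probe sets, yet only 3 were at least 2-fold lower and 1 was higher (median -0.70). The 7 small heat shock proteins, which hold unfolding proteins in solution, had ratios from -0.97 to -0.25. The brightest of them (DW513189) had 12485.5 in 57-4 and 22358.4 in Pima S-1, 1.79-fold lower. The co-chaperone sti1 (DT455673) had 10158.2 in 57-4 and 18321.3 in Pima S-1, and the heat shock cognate HSC70-1 (CA992722) had 13099.9 in 57-4 and 18240.8 in Pima S-1. The heat shock protein DN780720, already described, stood far below the others. A peptidyl-prolyl isomerase (CO074223), which turns proline bonds during folding, was the higher one with 213.1 in 57-4 and 70.4 in Pima S-1. Heat stress transcription factor B-2a (DT047459) had 1175.9 in 57-4 and 2835.7 in Pima S-1 (log2 -1.27).

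Folding and translocation proteins of the endoplasmic reticulum were divided, with 3 higher and 3 lower of 15 measured (median -0.75). A protein disulfide isomerase (CO121107), which forms disulfide bonds in secreted proteins, had 95.3 in 57-4 and 357 in Pima S-1, 3.75-fold lower, while another (DT051293) had 146 in 57-4 and 26.1 in Pima S-1 (log2 1.55, a bound). The 3 higher ones were all under the floor in Pima S-1 ovules. The chaperones calreticulin and endoplasmin lay between -0.82 and -0.35.

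Protein turnover genes lay below 0 almost throughout. In the ubiquitin and proteasome list 42 of 43 ratios were below 0 (median -0.67), 6 were at least 2-fold lower and none was higher. A ubiquitin carrier protein (DW227239), the enzyme that passes ubiquitin on to substrates, had 133.7 in 57-4 and 422.2 in Pima S-1, 3.16-fold lower. Polyubiquitin (AI727463) had 1333.5 in 57-4 and 2942.1 in Pima S-1, and proteasome regulatory subunit 6A (AI055650) had 269.7 in 57-4 and 656.1 in Pima S-1. The core subunits of the proteasome differed less, with ratios of -0.99 to -0.10 for the alpha type subunits. Of 29 measured proteases 6 were lower and 1 higher, among them an X-Pro dipeptidase (AI728599) with 73.5 in 57-4 and 271.9 in Pima S-1.

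Cytosolic ribosomal proteins, as labelled, were below 0 in 38 of 45 (median -0.49), with 3 higher and 3 lower. The acidic stalk protein P1 (DW227400) was the lowest, with 432.5 in 57-4 and 1132.9 in Pima S-1. The 3 on the higher side were labelled only as ribosomal proteins S14 (DW229123, 1750.9 in 57-4 and 485 in Pima S-1), S3 (DW513629, 3840.4 in 57-4 and 1187.4 in Pima S-1) and S7 (DW232903, 111.5 in 57-4 and 48.9 in Pima S-1). Proteins of these names occur in cytosolic, plastid and mitochondrial ribosomes, and the label does not say which was read. Translation factors had 4 lower and 1 higher of 27 measured (median -0.57). Elongation factor EF-2 was lower at every probe set listed, from -1.32 to -0.89. RNA processing and binding proteins had 4 lower and none higher of 35 measured (median -0.50).

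The 4 ribosomal RNA probe sets did not share a direction. A 26S rRNA sequence (DT054327) had 5285.5 in 57-4 and 1402.6 in Pima S-1, 3.77-fold higher, while another (CD485534) had 205.4 in 57-4 and 458.5 in Pima S-1, 2.23-fold lower. The 18S probe set (BE054472) had 394.2 in 57-4 and 637.7 in Pima S-1. Probe sets for the same ribosomal RNA thus disagreed in direction, and no level of rRNA can be read from them.

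Genes that plants usually encode in plastids or mitochondria fell on both sides, and the split ran within named genes. This set was formed after the values were seen, so its counts are a description. Of 23 measured probe sets 7 were at least 2-fold higher, 2 lower, and 15 were below 0. The higher ones were succinate dehydrogenase subunit 4, NADH dehydrogenase subunit 5 (DV849174, 358.7 in 57-4 and 93.1 in Pima S-1), cytochrome b6/f subunit VIII (DW492007, 380.8 in 57-4 and 100.6 in Pima S-1), ycf2 (CA992774, 131.9 in 57-4 and 11.3 in Pima S-1) and plastid ribosomal proteins L22, L32 and L33. L22 (DN779773) was the brightest, with 1808.8 in 57-4 and 480.5 in Pima S-1. The lower ones were a maturase K probe set (DW515041), which reads a plastid intron splicing protein, with 108.8 in 57-4 and 245.9 in Pima S-1, and cytochrome c oxidase subunit I (DW519132) with 384.5 in 57-4 and 859.5 in Pima S-1. Plastid ribosomal proteins S18 and S8 were lower by less (log2 -0.84 and -0.68), and a second ycf2 probe set (DW238578) had 638 in 57-4 and 889.2 in Pima S-1. The maturase K accession DR461340, read by 2 probe sets, had log2 ratios of -0.43 and 0.58.

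**Figure D3:**
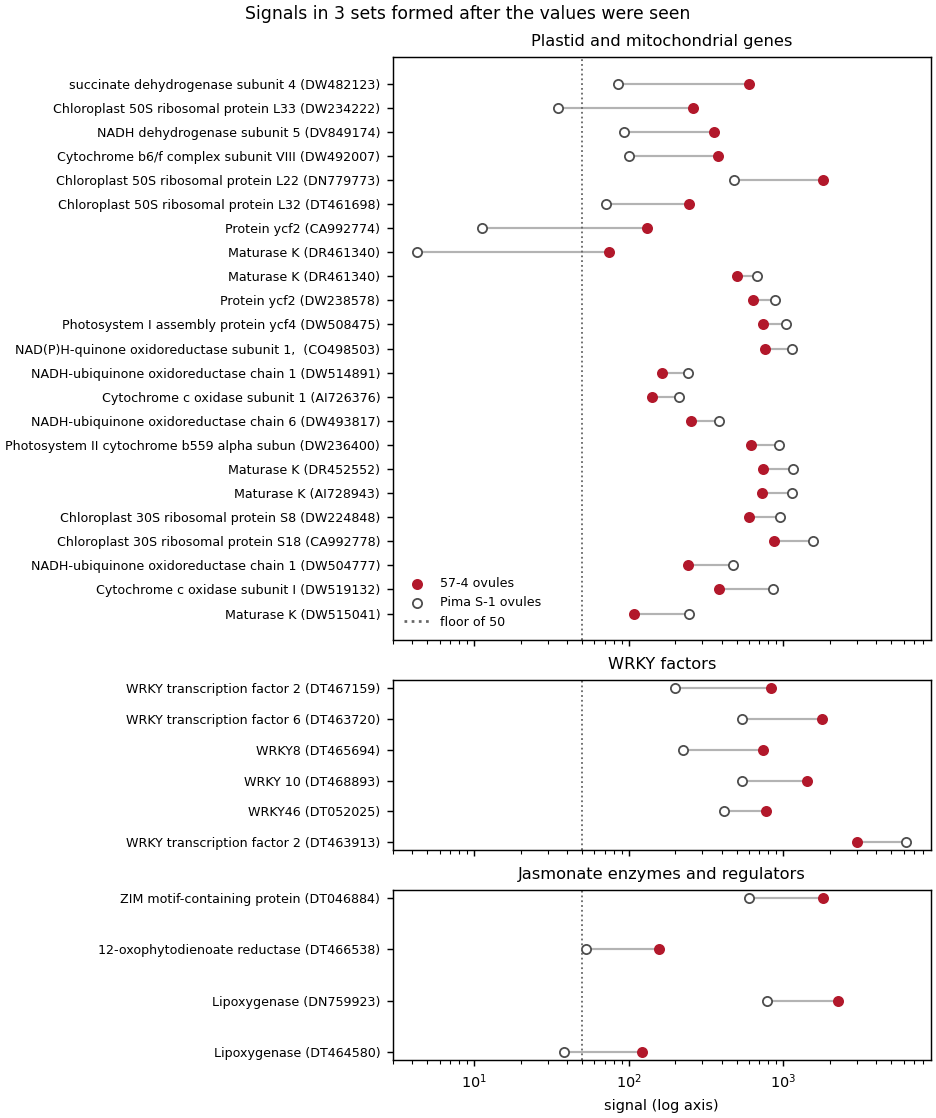
Signals on the 2 ovule arrays, on a log axis, for 23 probe sets of plastid and mitochondrial genes, 6 of WRKY factors and 4 of jasmonate enzymes and regulators, sets formed after the values were seen. Filled red points are 57-4 ovules, open points Pima S-1 ovules and the dotted line the floor of 50. Organelle genes lie on both sides, 5 of 6 WRKY probe sets and 4 of 4 jasmonate probe sets are higher in 57-4.

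In glycolysis and fermentation 2 of 17 measured were at least 2-fold lower and none was higher (median -0.45). Alcohol dehydrogenase A (BE054959), which regenerates NAD in fermentation and is listed for anthers only, had 15104.1 in 57-4 and 14413.6 in Pima S-1. Its other measured probe sets had log2 ratios of -0.72 (DW506030), -0.39 (DT457597) and -0.11 (DT456172). Phosphoglycerate kinase (DT469106) had 10321.9 in 57-4 and 14075.2 in Pima S-1. Another phosphoglycerate kinase probe set (DT456147) had 158.8 in 57-4 and 365.9 in Pima S-1, 2.30-fold lower. In the TCA cycle, succinate dehydrogenase differed between its subunits, since the flavoprotein subunit (DT570098) had 111.5 in 57-4 and 296.7 in Pima S-1, 2.66-fold lower, while subunit 4 was higher. Citrate synthase (DR462694), the entry enzyme of the cycle, had 361.2 in 57-4 and 707.9 in Pima S-1 (log2 -0.97). The respiratory chain held 2 higher and 1 lower of 17 measured. Photosynthesis genes had 1 higher and none lower of 20 measured (median -0.43). Rubisco small chains lay between -0.51 and -0.12, and a chlorophyll a/b binding protein (CA993199) had 6188.5 in 57-4 and 3109.2 in Pima S-1, just under 2-fold. The 22 markers of photosynthetic tissue among the members summed to 19749.5 in 57-4 and 20778.1 in Pima S-1, with 1 higher and none lower. CA993199 alone gave 6188.5 of the 57-4 sum and 3109.2 of the Pima S-1 sum. It is listed for anthers only, as are several others of the 22, so the near-equal sums rest largely on 1 probe set.

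Transcription factors lay on both sides, with 12 higher and 9 lower of 75 measured (median -0.40). WRKY factors, which bind W-box promoters in stress and defence responses, were mostly higher. WRKY transcription factor 6 (DT463720) had 1786.4 in 57-4 and 539.2 in Pima S-1, WRKY8 (DT465694) had 738.4 in 57-4 and 223.5 in Pima S-1, and WRKY 10 (DT468893) had 1430.1 in 57-4 and 539.7 in Pima S-1. WRKY46 (DT052025) had 768.6 in 57-4 and 416.1 in Pima S-1, within 2-fold. The probe sets named WRKY transcription factor 2 disagreed, with 833.4 in 57-4 and 200 in Pima S-1 at DT467159 (4.17-fold higher) but 3013.3 in 57-4 and 6225.4 in Pima S-1 at DT463913 (log2 -1.05). The 6 WRKY probe sets were gathered after their values were seen. MYB factors were also divided, since MYB127 (DT465545) had 3945.4 in 57-4 and 1250.9 in Pima S-1 (log2 1.66) and the MYB factor CO124179 had 109.9 in 57-4 and 333.4 in Pima S-1 (log2 -1.60).

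Ethylene genes and AP2/ERF factors, the family that binds ethylene and dehydration response elements, were balanced with 3 higher and 3 lower of 25 measured (median -0.30). Besides ERF017, ERF-2 (DN758410) had 20.4 in 57-4 and 185 in Pima S-1, and a dehydration responsive element binding protein (DT462887) had 149 in 57-4 and 431.4 in Pima S-1. On the other side, ERF-1 (AY779339) had 3144.4 in 57-4 and 1509.1 in Pima S-1, 2.08-fold higher (log2 0.66 after scaling on the controls), and EIL2 (CO073957), of the family that acts first in the ethylene transcriptional response, had 149.2 in 57-4 and 14.7 in Pima S-1. The enzymes that make ethylene, listed for anthers only, stayed within 2-fold. ACC synthase (DQ122174) had 608.5 in 57-4 and 434.5 in Pima S-1, and ACC oxidase 1 (DQ116442) had 3796.8 in 57-4 and 3540.8 in Pima S-1. A second ERF017 probe set (DN758194) had 281 in 57-4 and 380.3 in Pima S-1 and so differed far less than the first.

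Of 18 measured probe sets of hormones other than auxin and ethylene, 5 were higher and 2 lower (median -0.03). Of the higher ones 4 form the jasmonate set, which was gathered after its values were seen. A GAMYB-binding protein (CO122244), named for its link to a gibberellin-regulated MYB factor, was the lowest with 139.2 in 57-4 and 374 in Pima S-1 (log2 -1.43). Lipoxygenase (DN759923), which opens the pathway from linolenic acid to jasmonate, had 2243.3 in 57-4 and 789.7 in Pima S-1 (log2 1.51), and a second lipoxygenase (DT464580) had 121.2 in 57-4 and 38.3 in Pima S-1. 12-oxophytodienoate reductase (DT466538), a later enzyme of the pathway, had 157.5 in 57-4 and 53 in Pima S-1, and a ZIM motif protein (DT046884), of the family that includes the jasmonate repressors, had 1818.2 in 57-4 and 596.8 in Pima S-1. Allene oxide synthase (DT047194) was under the floor in both. The gibberellin repressor DELLA GAI gave opposite ratios, with 953.7 in 57-4 and 303.6 in Pima S-1 at DT468888 (3.14-fold higher) and 823 in 57-4 and 1167.2 in Pima S-1 at DW235285 (log2 -0.50). Of 15 auxin probe sets only the basic helix-loop-helix factor DT460896 passed 2-fold. Another probe set of that name (AF165924) went the other way, with 134.2 in 57-4 and 162.9 in Pima S-1 (log2 -0.28). The auxin receptor TIR1 (CO123649) had 280.8 in 57-4 and 278.4 in Pima S-1.

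Protein kinases held 5 higher and 9 lower of 40 measured (median -0.56), and calcium signalling 3 higher and 3 lower of 24 (median -0.41). Calcium-dependent kinases bind calcium themselves, while CBL-interacting kinases rely on a separate calcium sensor. All 3 measured probe sets named calcium-dependent kinase were above 0 and all 6 of CBL-interacting kinases below 0. Those named CDPK-related kinase were also below 0 (CO498379 at -0.77, DR453290 at -0.30). CDPK1444 (DT466991) had 2530 in 57-4 and 894.2 in Pima S-1, 2.83-fold higher. A calcium-dependent kinase probe set of the same transcript cluster (DT467367) had 130.8 in 57-4 and 18.1 in Pima S-1. The remaining one (DT464094) had 91.5 in 57-4 and 12.3 in Pima S-1 (log2 0.87, a bound). CBL-interacting kinase 16 (AI726658) had 115.2 in 57-4 and 300.4 in Pima S-1, 2.61-fold lower, and kinase 13 (DT456116) had 6291.9 in 57-4 and 12768.5 in Pima S-1 (log2 -1.02). The catalytic subunit of casein kinase CK2 (DT559753) had 159.4 in 57-4 and 457.9 in Pima S-1, and that of phosphatase PP2A (DT047246) had 210.2 in 57-4 and 521.1 in Pima S-1, 2.48-fold lower. Of 16 protein phosphatases 2 were lower and none higher.

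Pigment, terpenoid and lipid lists each held members on both sides. Beside chalcone synthase, dihydroflavonol 4-reductase (CO128009), which makes the precursors of anthocyanins, had 635.5 in 57-4 and 1342.9 in Pima S-1 (log2 -1.08), but its other probe set (DT574906) had 203.2 in 57-4 and 286 in Pima S-1. The flavonoid and phenylpropanoid list had 1 higher and 2 lower of 15. HMG-CoA reductase 1 (DT549604), the rate-limiting enzyme of the mevalonate pathway, had 773.9 in 57-4 and 1783.4 in Pima S-1 (log2 -1.20), and sterol methyltransferase 2 (DT564348) had 333.2 in 57-4 and 775.8 in Pima S-1. Delta-cadinene synthase, which starts gossypol synthesis, had 4904.1 in 57-4 and 4946.3 in Pima S-1 at U23205, and 112.2 in 57-4 and 19.7 in Pima S-1 at CO107110, a log2 ratio of 1.17 that is a bound. In the lipid list 2 were higher and 3 lower of 31. An acyl carrier protein thioesterase (DW480118), which releases palmitate from its carrier, had 1366 in 57-4 and 409.8 in Pima S-1, 3.33-fold higher.

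Transporters and pumps held 7 lower and 1 higher of 41 measured (median -0.67). Vacuolar proton pump subunits, which acidify the vacuole, were lower at all 7 probe sets named vacuolar H+-ATPase, ATP synthase or proton pump that were measured, from -1.26 to -0.50. The aquaporin PIP2-7 (CO087285), a water channel, had 9453.8 in 57-4 and 15816.1 in Pima S-1, 1.67-fold lower. A proton pump interactor (DT455687) was the higher one, with 802.4 in 57-4 and 247.8 in Pima S-1. In vesicle traffic the SNARE vti1a (DT456660) had 1762.9 in 57-4 and 631 in Pima S-1, 2.79-fold higher, and the other 14 of 15 were below 0.

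Among redox proteins 2 of 27 were higher and none lower (median -0.47). Ascorbate peroxidase 1 (DT051416), which removes hydrogen peroxide, had 7930.3 in 57-4 and 13479.1 in Pima S-1. Metallothionein (AY857933), a metal-binding protein listed for anthers only, had 10801.3 in 57-4 and 9664.1 in Pima S-1. Defence and stress proteins were split, with 4 higher and 3 lower of 30. Dehydrin (CO110877), which protects cells from drying, had 237.7 in 57-4 and 71.1 in Pima S-1, 3.34-fold higher, and an acidic beta-1,3-glucanase (DT461954) had 186.3 in 57-4 and 31 in Pima S-1 (log2 1.90, a bound). An ozone-responsive protein (AJ513421) had 3470.8 in 57-4 and 7589.5 in Pima S-1. The acidic chitinases, enzymes that cut fungal walls, all lay between -0.94 and -0.43.

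Sugar and starch genes held 3 higher and 3 lower of 19 measured (median -0.54). Starch branching enzyme II (DR457000), which builds the branches of amylopectin, had 140.2 in 57-4 and 304.2 in Pima S-1, and granule bound starch synthase II (DW507563) had 137.8 in 57-4 and 280.3 in Pima S-1. Beta-amylase (AI730902), which breaks starch down, had 232.8 in 57-4 and 62 in Pima S-1, 3.75-fold higher, while alpha-amylase (DW234622) had 449.7 in 57-4 and 477.4 in Pima S-1. Sucrose synthase (DW516020), which feeds sucrose carbon to wall and starch synthesis, had 178.5 in 57-4 and 48 in Pima S-1. In amino acid, polyamine and one-carbon metabolism 3 were higher and 1 lower of 31 (median -0.54). A second spermidine synthase-like probe set (DT053558) was also higher, with 217 in 57-4 and 66.2 in Pima S-1 (log2 1.71), and the third (CO082841) had 97.9 in 57-4 and 1.6 in Pima S-1. S-adenosylmethionine decarboxylase (DR455468), which supplies the other substrate of spermidine, had 1179.9 in 57-4 and 1424.9 in Pima S-1.

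**Figure D4:**
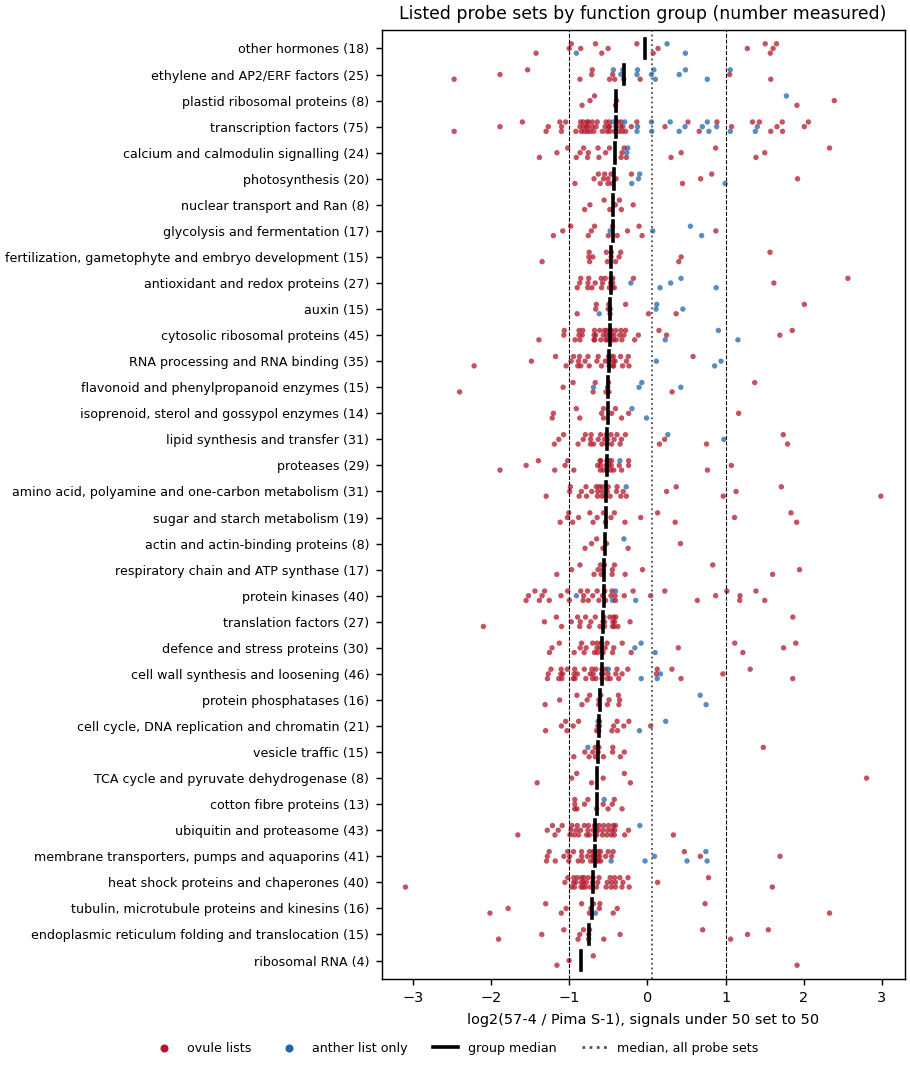
Log2(57-4/Pima S-1) of the measured listed probe sets in 36 function groups, ordered by group median (thick bars), with the number measured in parentheses. Red points are on the ovule lists and blue points listed for anthers only, the dotted line is the median of all measured probe sets (0.06) and dashed lines mark 2-fold. All 36 medians lie below 0, from -0.85 for ribosomal RNA to -0.03 for the other hormones.

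All 36 group medians were below 0, and since the ovule lists were chosen on these arrays the common sign says nothing particular about a function. The groups hold 863 of the 1178 described members, of which 41 stand in more than 1 group. The 481 members without a name had a median of -0.54, the same as the described members, with 49 lower and 6 higher. The lowest of them was DW489795 with 87 in 57-4 and 463.3 in Pima S-1, and the highest DW506962 with 830.2 in 57-4 and 201.8 in Pima S-1.

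Members differed from the whole array in how their probe sets were designed. Probe sets marked as shared by several transcripts made up 54.4% of members, 37.2% of the higher ones and 52.6% of the lower ones, against 38.7% of all probe sets. Over the whole array they made up 35.2% of the probe sets at least 2-fold higher and 48.4% of those at least 2-fold lower. The gap between higher and lower members was thus not particular to members. Designs on G. raimondii sequence, a related diploid cotton, made up 15.1% of members and 29.4% of all probe sets. Such shared probe sets sum related genes, so that a ratio may belong to a gene family rather than to the gene named. Among all pairs of probe sets of 1 transcript cluster with signals of at least 100, the log2 ratios of the pair differed with an SD of 0.70 (1286 pairs). Among the members there were 17 such pairs, with an SD of 0.40 and the same sign in 17 of 17, a sign that the choice of members largely fixes. This SD measures disagreement between probe sets on these arrays and is not replicate error. The SD over all pairs is larger, and that over member pairs smaller, than the size of the median member ratio of -0.54.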

How the data were processed

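Anther and ovule RNA of 57-4 and Pima S-1, pooled by tissue and genotype, was hybridized to 4 Affymetrix arrays, 1 per condition. The deposited values are intensities, the MAS5 signals computed by the authors and scaled to a common trimmed mean. The software version is not given in the sources used here. The table holds 24132 rows, and its 103 control rows entered no count. Signals under 50 were set to 50 and log2(57-4/Pima S-1) was taken for ovules with Python 3.11.15, numpy 2.4.6 and pandas 2.3.3. The counting was tested on simulated data. With 1 array per genotype no test was possible, and precision is limited by that number.

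Members come from the study's Additional files 2 and 3, of which the ovule table was held only in part. Columns of log ratios, change calls and p-values in those files hold the authors' own comparison and were not used. The members, function lists and tissue markers were chosen with earlier results of these data known. Function groups rest on words in the probe set names, and 61 matches by a word of another meaning were removed on reading the names. The rule for named genes was applied to described members whose brighter array read 200 or more and took the 10 highest, 10 lowest and 10 brightest, and the highest and lowest of each of 36 groups. Other genes given with values were chosen after their values were seen, as were the organelle, small heat shock protein, WRKY and jasmonate sets. No array annotation or probe sequence was used here. Alternatives were no floor, a floor of 100, centring, quantile normalization, scaling on the hybridization controls, single-transcript probe sets only, a log2 threshold of 1.5, exchange of the ovule arrays and the ovule lists alone.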

Additional observations from a re-analysis of the deposited data

Results flagged for a closer look

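Of 259 members past 2-fold in ovules, 9 (3.47%) were past 2-fold in the opposite direction in anthers, against 25 of 1265 (1.98%) over all probe sets. Of the 9 members, 6 are listed for anthers only, so the study's anther comparison chose them, 7 were higher and 2 lower in 57-4 ovules, and 5 are described. Each rests on 1 array per genotype and tissue, and the difference between the tissues was not tested. ERF-1 (AY779339) had a log2 ratio of 1.06 in ovules and -1.24 in anthers. Inositol oxygenase 4 (CO084627), which makes glucuronate for wall sugars, had 1.40 in ovules and -1.75 in anthers. Plastid ribosomal protein L32 (DT461698) had 1.78 in ovules and -1.76 in anthers. A nucellin-like protein (DT462947) had 1.41 in ovules and -1.54 in anthers, and a glycine-rich protein (DT463212) had 1.51 in ovules and -1.21 in anthers. The 5 described ones were higher in 57-4 ovules, while 2 without a name, CO089733 (-1.09 in ovules, 1.23 in anthers) and DT565137 (-1.65 in ovules, 1.04 in anthers), went the other way.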

How the results depend on the processing

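Higher members numbered 86 and lower ones 173. The higher count was 176 with no floor, 49 with a floor of 100 and 57 after scaling on the hybridization controls. It was 47 with single-transcript probe sets, 50 at a log2 threshold of 1.5 and 173 with the ovule arrays exchanged. Over all probe sets the higher count was 5453 with no floor, 283 with a floor of 100 and 176 after scaling on the controls. With single-transcript probe sets it was 354. With no floor, the share of members that were higher was below the share of all probe sets. The lower count was 667 after scaling on the controls and 73 with single-transcript probe sets, against 1516 and 282 over all probe sets. It was 28 at a log2 threshold of 1.5 and 86 with the arrays exchanged. At the threshold of 1.5 the higher members thus outnumbered the lower ones. No count over all probe sets is available at that threshold, so this cannot be set against the whole array. Centring, quantile normalization and the ovule lists alone kept the higher and the lower count within 1.5 times. With single-transcript probe sets the group medians of the TCA cycle (1.25), photosynthesis (0.17), plastid ribosomal proteins (0.52), auxin (0.24), other hormones (0.13) and defence and stress proteins (0.25) turned above 0, and with no floor that of other hormones (0.0571) did. Fewer probe sets remained with the single-transcript choice. For the TCA cycle these were only malate dehydrogenase (log2 -0.30) and succinate dehydrogenase subunit 4 (log2 2.80). Under these settings and the others, apart from the exchange, all other group medians and the level medians from a signal of 100 kept their sign. Under 100 the median of all members (0.17) was 1.19 with no floor and 0 with a floor of 100, quantile normalization or scaling on the controls. None of the 81 genes named by the rule turned its direction past 2-fold, but 13 passed 2-fold and 1 no longer did after scaling on the controls. Other genes given with values did not enter this check. No paired analysis was possible because each genotype has 1 ovule array, and none could be left out.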
